A study of Mus musculus with 36 samples.

Results

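Meiosis is complete by the time a round spermatid forms, so RNA of meiotic genes in these haploid cells is what remains from, or is still made after, an earlier stage. Reads from an enriched preparation can also come from earlier cells left in it. Bulk RNA does not separate these sources. Of the 51912 genes in the round spermatid table, 10 genes of meiosis and the germ line were followed: the synaptonemal complex genes Sycp1, Sycp2, Sycp3 and Syce1, the recombination genes Spo11 and Dmc1, the chromosome axis gene Hormad1, the meiotic entry gene Stra8, and the germ cell genes Piwil1 and Ddx4. They were chosen by function and found by symbol, and all 10 had an Ensembl identifier and reads in every round spermatid library. Their levels were described first in 6 libraries of round spermatids, then compared with mature spermatozoa of the cauda epididymis and morulae, and last read in liver, epididymal white adipose tissue (eWAT) and gastrocnemius muscle, with 6 libraries each.

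All mice were wild type, C57BL/6 by the labels and C57BL/6N by the study's methods. Round spermatids and cauda spermatozoa came from 8-week-old males fed for 2 weeks on high-fat diet (HFD) or low-fat diet (LFD), and morulae were made in vitro from such sperm and oocytes of unexposed females and cultured for 72 h. Somatic tissues came from male offspring of HFD-fed fathers, labelled HFDt (HFD tolerant) or HFDi (HFD intolerant) by their glucose tolerance, with 3 libraries of each per tissue. Sperm and morula columns carry the diet (3 libraries per diet), whereas columns of round spermatids, liver, eWAT and gastrocnemius carry laboratory numbers only, so those 6 libraries per tissue were treated as 1 group and no diet was compared in them. Spread among the round spermatid libraries may thus include an effect of diet. Round spermatids had been enriched on a density gradient and checked under the microscope for a minimum purity, which left room for other cells. Spermatozoa were taken by swim-up and kept only where the microscope showed no somatic cells.

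In a spermatocyte the homologous chromosomes are held together by the synaptonemal complex, a protein ladder with lateral elements along each chromosome axis and transverse filaments between them. Recombination starts with DNA breaks made on these axes and is finished before the first division. Transcripts of the testis are often stored for days in germ granules, and round spermatids remain joined by bridges, so meiotic messages can outlast the stage at which their proteins act.

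Total counts per library were 20138842 to 31056066 in round spermatids, 2560219 to 4062321 in sperm, 11471251 to 12153141 in morulae, 2036237 to 2552454 in liver, 1338149 to 4055537 in eWAT and 369772 to 2749920 in gastrocnemius. Libraries are numbered within each group by rising total. Genes encoded in mitochondrial DNA (mtDNA) took 1.96 to 2.38% of round spermatid counts, 22.8 to 26.9% in morulae, and 78.1 to 84.3% in HFD sperm against 43.5 to 64.7% in LFD sperm. Levels are given in CPM, the counts of a gene scaled to the library total in the usual way, and, where the mitochondrial share matters, in CPM taken over the counts not on mtDNA genes (nuclear CPM). A count of 0 allows up to 3 counts, equal to 0.0966 to 0.149 CPM in round spermatids and 0.738 to 1.17 CPM in sperm, for counting error only.

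The promoters of 9 of the 10 genes were matched in RefSeq (GRCm38.p6), all except Spo11, and were read over the 250 bases before the start site, on both strands. The E-box CACGTG stood in 5 of them (Sycp1, Sycp3, Hormad1, Piwil1 and Ddx4) and in 6.05% of the promoters of 27025 genes, and the E2F6 motif GCGGGAA in 3 (Sycp3, Hormad1 and Ddx4) and in 3.84% of all. The STRA8 motif CNCCTCAG, found in 6.39% of all, and the cyclic AMP response element TGACGTCA, found in 1.62%, were in none of the 9. Windows of 3 of the genes are shown because they hold the E-box singly, or in pairs with the E2F6 motif. Capitals mark CACGTG and GCGGGAA, each window is written 5′ to 3′ on the gene's strand, and the last base adjoins the start site. They lie at chr3:102936101-102936350 (minus strand, Sycp1), chr10:88459337-88459586 (plus strand, Sycp3) and chr3:95559427-95559676 (plus strand, Hormad1) of GRCm38.p6. The first base of the E-box lay 94 bases upstream in Sycp1, 64 and 43 in Sycp3, and 57 and 20 in Hormad1.
Sycp1: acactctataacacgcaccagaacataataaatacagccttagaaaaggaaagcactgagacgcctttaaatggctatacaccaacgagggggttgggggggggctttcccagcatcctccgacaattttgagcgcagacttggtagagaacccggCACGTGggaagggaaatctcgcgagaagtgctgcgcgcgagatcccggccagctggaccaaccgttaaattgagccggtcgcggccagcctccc
Sycp3: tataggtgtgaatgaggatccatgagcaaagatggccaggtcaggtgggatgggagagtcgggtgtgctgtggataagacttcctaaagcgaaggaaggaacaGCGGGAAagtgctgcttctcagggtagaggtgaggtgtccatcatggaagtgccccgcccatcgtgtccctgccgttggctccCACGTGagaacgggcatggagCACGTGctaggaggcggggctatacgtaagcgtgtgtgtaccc
Hormad1: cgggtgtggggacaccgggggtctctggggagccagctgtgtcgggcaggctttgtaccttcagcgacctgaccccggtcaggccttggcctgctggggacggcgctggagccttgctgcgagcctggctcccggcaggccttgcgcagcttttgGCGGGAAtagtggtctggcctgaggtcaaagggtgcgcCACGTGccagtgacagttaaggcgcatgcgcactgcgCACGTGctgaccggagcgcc

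These matches are letters in a window and describe no binding. Genes with the E-box include Ddx4, the highest of the 10 per length of exon in round spermatids, and Sycp3, which was far lower.

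Round spermatids held reads of all 10 meiotic genes, at levels that spanned 138-fold per length of exon. Summed over the 10, they took 1821 ± 80.4 CPM (SD, n = 6), with 1742 CPM in the lowest library, a median of 1802 and 1968 in the highest. Ddx4 alone made up 33.7% of that sum, Piwil1 16.9%, Syce1 16.8% and Sycp2 16.6%, whereas Dmc1 took 0.249% and Stra8 0.154%. Without Piwil1 and Ddx4, which are not parts of meiotic chromosomes, the sum was 898 ± 41.0 CPM (SD, n = 6).

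The helicase gene Ddx4, the mouse Vasa, which marks the germ line from the primordial germ cell on and acts in germ granules, lies at chr13:112598333-112652310 (GRCm38, minus strand). Its level was 574 CPM in the lowest library, 619 at the median and 657 in the highest (mean 614 ± 33.4, SD, n = 6). Piwil1, also called Miwi, encodes the PIWI protein that binds pachytene piRNAs and is made from the pachytene stage into the round spermatid (chr5:128702524-128755474, plus strand). It had 264, 312 and 352 CPM as lowest, median and highest value (mean 309 ± 35.4). Both genes belong to stages that include the round spermatid, and no library lacked either.

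Of the synaptonemal complex genes, Syce1 and Sycp2 were high and Sycp3 low. Syce1, a central element gene at chr7:140777229-140787852 (minus strand), had 290 CPM in the lowest library, 304 at the median and 326 in the highest (mean 307 ± 14.8, SD, n = 6). Sycp2, a lateral element gene at chr2:178345293-178407685 (minus strand), had 267, 295 and 350 CPM (mean 302 ± 28.5). Per kb of exon, however, Syce1 was far above Sycp2, with 210 ± 10.1 against 50.7 ± 4.77 CPM per kb, since the exons of Sycp2 are longer (5967 against 1460 bases).

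Sycp1, which encodes the transverse filament (chr3:102818499-102936100, minus strand), had 119, 138 and 154 CPM as lowest, median and highest value (mean 138 ± 14.9, SD, n = 6). Sycp3, the partner of Sycp2 in the lateral element (chr10:88459569-88473236, plus strand), had 26.7, 27.1 and 35.7 CPM (mean 28.7 ± 3.50). A single library, number 3, stood above the other 5 for Sycp3, which lay between 26.7 and 28.8 CPM. Of the 1264 exon bases of Sycp3, 660 overlap exons of Chpt1 on the opposite strand, and the counting is not stated to use strand, so reads of the 2 genes cannot be told apart there. Chpt1 had 9856 counts in round spermatids against 4302 of Sycp3.

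Hormad1, which marks unsynapsed chromosome axes and is removed on synapsis (chr3:95559677-95587671, plus strand), had 47.7, 53.5 and 61.03 CPM (mean 54.0 ± 5.64, SD, n = 6). Spo11, whose protein cuts the DNA to start recombination (chr2:172977700-172993576, plus strand), had 58.7, 61.3 and 63.0 CPM (mean 61.02 ± 1.72). It was the steadiest of the 10, with a coefficient of variation (CV) of 2.83%. Dmc1, the recombinase that pairs the cut strand with the homologue (chr15:79561500-79605084, minus strand), was at 3.82, 4.00 and 6.46 CPM (mean 4.53 ± 1.06), or 81 to 130 counts per library. The 2 recombination genes thus differed, with 15.6 ± 0.440 CPM per kb for Spo11 and 2.07 ± 0.483 for Dmc1 and no overlap between their ranges.

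Stra8, switched on by retinoic acid as germ cells enter meiosis (chr6:34920163-34939344, plus strand), was the lowest, with 1.64, 2.70 and 4.00 CPM (mean 2.81 ± 0.927, SD, n = 6), or 46 to 99 counts. Its CV of 33.0% was the highest of the 10 and that of Dmc1, 23.4%, came next. Relative counting error is larger at counts of this size than at those of the higher genes, and its part in these CVs was not tested. The other 8 had CVs of 2.83 to 12.2%. The median CV was 10.6% over the 10 genes and 10.1% over the 18276 genes with a mean of at least 1 CPM, of which 1 in 10 lay below 4.32% and 1 in 10 above 22.1%.

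**Figure D1:**
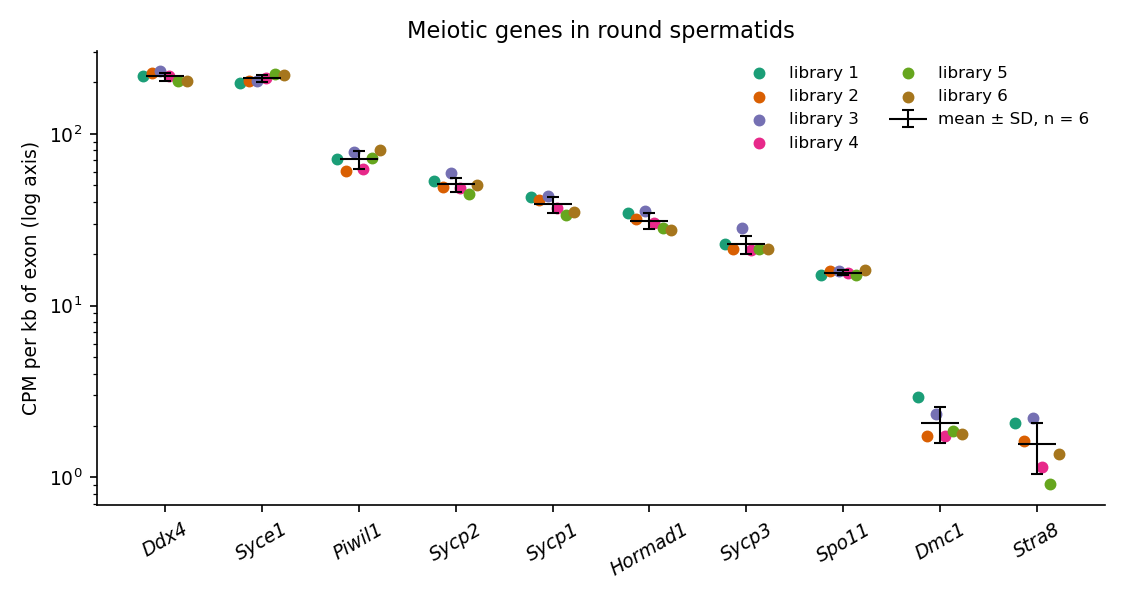
Level of each meiotic gene in CPM per kb of exon (log axis) in the 6 round spermatid libraries (coloured points), with mean ± SD as black bars. Ddx4 and Syce1 average 216 and 210, 6 genes average between 15.6 and 70.8, and Dmc1 and Stra8 average 2.07 and 1.56.

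Ordered by level per kb of exon, neighbours in the list often could not be separated. Ddx4 (202 to 231 CPM per kb over the libraries) and Syce1 (199 to 223) overlapped, and so did Sycp1 (33.6 to 43.4) with Hormad1 (27.6 to 35.3), and Hormad1 with Sycp3 (21.1 to 28.2). Piwil1 (60.6 to 80.7), Sycp2 (44.8 to 58.7) and Spo11 (14.97 to 16.1) stood apart from the genes above and below them. Dmc1 (1.74 to 2.94) and Stra8 (0.910 to 2.22) overlapped again, and they alone lay below the median of 3.59 CPM per kb over the same 18276 genes. Ddx4, which marks germ cells long before meiosis, was the highest and Stra8, which acts at meiotic entry, the lowest.

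Among themselves the libraries were ranked alike by several genes. Library 3 was the highest for 6 of the 10 genes and library 5 the lowest for 5. On the log2(CPM + 0.5) scale, Stra8 deviated from its mean by 0.49 in library 3 and by -0.58 in library 5, and Dmc1 by 0.49 in library 1. Without library 3, the sum of the 10 was 1792 ± 40.2 CPM (SD, n = 5), with about the same mean and a smaller spread. Syce1 went against this order, being lowest in library 1 and highest in library 5.

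Markers of spermatogonia moved in part with these ranks. The summed level of 15 spermatogonial markers was 164.9, 126.6, 145.4, 111.3, 107.5 and 112.9 CPM in libraries 1 to 6, highest in libraries 1 and 3, where Stra8 and Dmc1 were high too. The sum of 10 spermatocyte markers hardly moved, with 6529 to 6962 CPM. Bulk RNA does not show whether these reads came from spermatocytes or from spermatids, so the sum does not measure spermatocytes left in the preparation. That of 19 spermatid markers was 11534 to 14483 CPM, lowest in library 3. Markers of Sertoli cells summed to 34.8 to 66.2 CPM and were highest in library 3. The part of other cells in the ranks of the libraries was not tested.

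**Figure D2:**
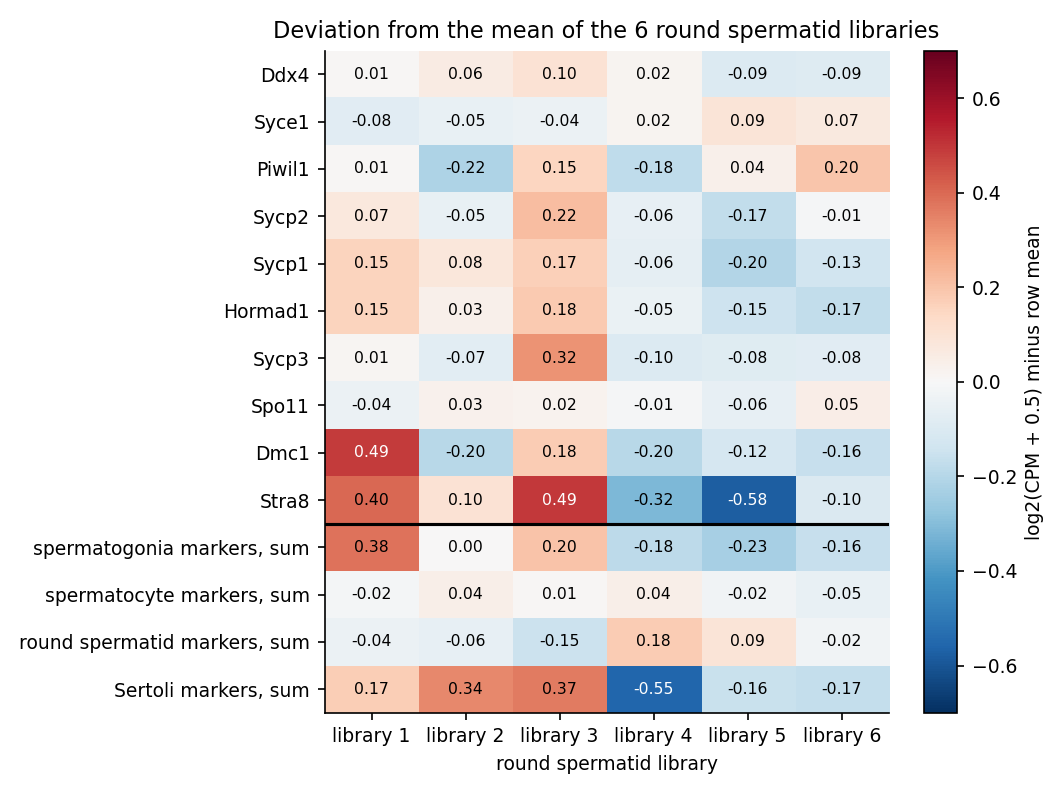
Deviation of each meiotic gene, and of summed marker lists below the black line, from its mean over the 6 round spermatid libraries, on the log2(CPM + 0.5) scale (red above, blue below, value printed in each cell). Stra8, Dmc1 and the Sertoli markers span the widest ranges, Stra8, Dmc1 and the spermatogonial markers are high in libraries 1 and 3, and Spo11 stays between -0.06 and 0.05.

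By the level of its defining markers the tissue went with its label, as the 19 spermatid markers summed to 11534 to 14483 CPM. All 19 were counted in every library, which at this depth does not mark a tissue. The protamine gene Prm2 had 3300 ± 425 CPM and Prm1 1737 ± 216 CPM (SD, n = 6). Per 100 counts on the 19 spermatid markers, the 10 meiotic genes had 12.2 to 17.1 counts. Markers of spermatogonia, the germ cells that precede meiosis, summed to 107.5 to 164.9 CPM over 15 genes, above every list of somatic testis cells, while Nanos2 of the stem cells among them was at 0.228 CPM. Marker lists of somatic testis cells and leukocytes were all counted but low: 11 Sertoli markers summed to 34.8 to 66.2 CPM (led by Ctsl, 21.0, and Aard, 7.89), 8 Leydig markers to 20.5 to 25.04 (Star 6.22, Insl3 4.92), 7 leukocyte markers to 14.7 to 22.9 (Adgre1 5.27, Csf1r 3.50) and 5 myoid markers to 6.60 to 7.73 (Myh11 2.68, Acta2 2.17). The defining genes Fshr (0.172 CPM) and Lhcgr (0.301 CPM) of Sertoli and Leydig cells were near 0. A list of 9 epididymal markers summed to 85.5 to 105.7 CPM, of which Cst8 took 91.5 on average. In bulk RNA, fewer cells of an earlier type and less RNA per cell cannot be told apart, so these sums are no estimate of purity.

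The other genes of meiosis were read from lists that leave out the 10. All 15 genes of the synaptonemal complex and cohesin were counted in every library and summed to 1299 to 1365 CPM, led by the meiotic cohesin genes Stag3 (585 CPM) and Smc1b (338 CPM). Recombination genes (22 of 23 matched) summed to 839 to 952 CPM, led by Tex15 (361 CPM) and Ankrd31 (102 CPM). Low values of Dmc1 and Stra8 had company here, in the break and repair genes Mei4 (0.364 CPM), Spata22 (1.32 CPM), Prdm9 (2.30 CPM) and Rec114 (3.45 CPM), picked after their values were seen. A list of 10 genes of meiotic entry and prophase summed to 2333 to 2486 CPM, led by the chaperone gene Hspa2 (1576 CPM) and Tcfl5 (310 CPM). The 16 piRNA and germ granule genes summed to 4363 to 4619 CPM, led by Tdrd6 (1491 CPM) and Mael (1026 CPM), which was more than the 10 meiotic genes together.

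**Figure D3:**
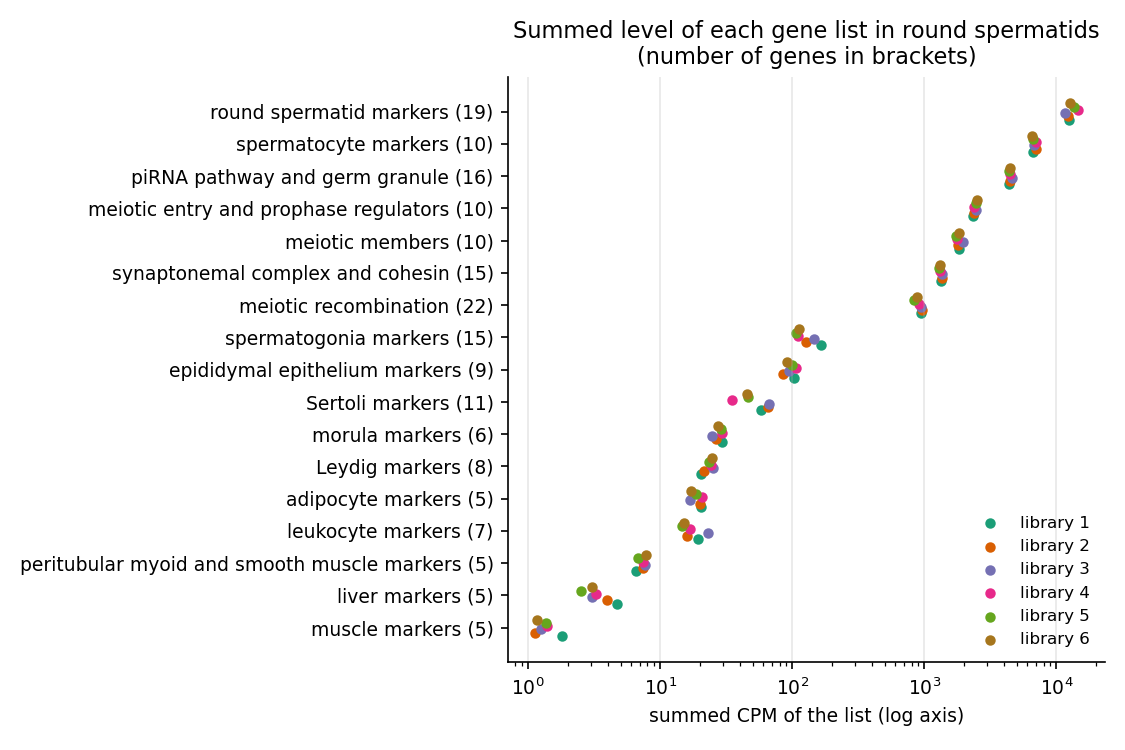
Summed CPM of each gene list (log axis) in the 6 round spermatid libraries, 1 coloured point per library. Spermatid markers lie at 11534 CPM or more and the 10 meiotic genes between 1742 and 1968, while marker lists of Sertoli, Leydig, leukocyte and myoid cells lie at or below 66.2 CPM.

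Spermatozoa of the cauda have finished the shaping of the sperm head and are silent in their nucleus. All 10 meiotic genes were detected in the pool of 6 sperm libraries, but thinly, with 55 to 132 counts per library. Summed over the genes they had 20.04, 26.9 and 14.03 CPM in HFD libraries 1 to 3 and 21.5, 45.3 and 29.5 CPM in LFD libraries 1 to 3, against at least 1742 CPM in round spermatids. Syce1 had 34, 26 and 14 counts on HFD and 15, 35 and 29 on LFD, Ddx4 10, 20 and 19 against 13, 28 and 32, and Sycp1 13, 11 and 13 against 5, 23 and 12. Only these 3 genes had a count in all 6 libraries. The sperm sum was led by Syce1 (31.3%), Ddx4 (24.6%) and Sycp1 (15.5%), so Ddx4 did not lead here as it did in round spermatids.

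The remaining 7 genes had counts in some sperm libraries only. Piwil1 had 26 counts in HFD library 2 and 27 in LFD library 2 of 57 in all, and 0 to 3 in each of the other 4. Sycp2 had 0, 14 and 5 counts on HFD and 7, 17 and 8 on LFD. Hormad1 had 9 counts over the 6 libraries, Sycp3 6, Spo11 5 (all in LFD library 1) and Dmc1 3 (1 in each HFD library). Stra8 had 2, 2 and 6 counts in the LFD libraries and 0 in each HFD library. Counts of 1 to 6 are near the limit of detection of libraries this small.

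Relative to sperm, edgeR called all 10 genes higher in round spermatids (two-sided quasi-likelihood test, threshold of 0.05 on the adjusted p), where 77.5% of the 20791 genes tested were called, 52.3% higher and 25.1% lower. The count is no result about these genes, because genes with next to no counts in sperm pass the filter on low counts only through round spermatids and then have to differ. The kit was the same but reads were paired-ended in round spermatids and single-ended in sperm, so cell type and read layout cannot be told apart. The median log2 fold change over all genes tested was 1.37, and on library totals it was 2.94, with 67.6% of calls higher under the former and 84.6% under the latter. Individual changes are therefore read against that median. Of the 10, only Sycp1, Syce1 and Ddx4 had enough counts to pass the filter in sperm alone, and among the 8617 tested genes that did, 31.9% were called higher in round spermatids and 46.1% lower.

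Sycp1 and Syce1, both present in each sperm library, changed least among genes with a count in both diets. The log2 fold change of round spermatids over sperm was 3.42 ± 0.32 for Sycp1 (SE; edgeR adjusted p = 2.55e-07) and 3.54 ± 0.34 for Syce1 (3.26e-07). It was 4.94 ± 0.30 for Ddx4 (3.72e-09). No library of one cell type overlapped with the other for these 3 genes, while groups did not overlap for 55.3% of all genes tested. The other 7 genes entered the test through round spermatids alone, so for Sycp2, Hormad1 and Sycp3 ratios of pooled counts are given in place of tests, with exact 95% intervals for counting error only. Per CPM, Sycp2 was 114 times higher in round spermatids (86.5 to 153; 51 counts in sperm), Hormad1 114 times (60.2 to 250.2; 9 counts) and Sycp3 91.9 times (42.2 to 251; 6 counts). On the same scale the ratio was 34.2 for Sycp1, 38.8 for Syce1 and 96.5 for Ddx4. All these ratios per CPM are raised by the larger share of mtDNA genes in sperm. Mean nuclear CPM in round spermatids and sperm was 141 against 15.4 for Sycp1, 313 against 31.9 for Syce1 and 628 against 22.2 for Ddx4. It was 309 against 8.66 for Sycp2, 55.2 against 1.74 for Hormad1 and 29.3 against 0.831 for Sycp3. Piwil1 entered through round spermatids alone as well, so its log2 fold change of 4.96 ± 0.74 is given as a size and not as a test. That value rested on the libraries numbered 2 of each diet, since without the HFD or the LFD one it was 6.63 or 7.33.

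For 3 genes a sperm diet held no count at all, so the same ratios are given for them. Per CPM, Spo11 was 235 times higher in round spermatids than in sperm (101 to 725), Dmc1 28.6 times (9.74 to 139) and Stra8 5.27 times (2.84 to 11.1). Relative to nuclear counts the ratios fell to 71.5 for Spo11, 8.68 for Dmc1 (2.96 to 42.2) and 1.60 for Stra8 (0.861 to 3.36). The recombination gene Spo11 was thus nearly lost from sperm RNA on either scale, whereas for Stra8 the interval on the nuclear scale included 1. Stra8 entered the test through round spermatids alone, so its call is no result about it. The call (edgeR adjusted p = 0.0288) was also the weakest, and the groups overlapped. Against LFD sperm alone the log2 fold change of Stra8 was 0.51 (edgeR adjusted p = 0.448). The call was lost as well without round spermatid library 1, 2, 3, 4 or 6 or HFD sperm library 3 (edgeR adjusted p = 0.0551 to 0.0730).

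Meiotic genes outside the 10 did not move as one block between round spermatids and sperm. Of the synaptonemal complex and cohesin genes, 11 of 14 tested were called higher in round spermatids and 2 lower, where 52.3% of all genes tested were higher and 25.1% lower. Only 4 of these 14 passed the filter in sperm alone, of which 2 were higher and 2 lower, so most of the higher calls were fixed by the choice of genes tested. By pooled CPM the central element gene Syce3 was 651 times higher in round spermatids (exact 95% interval 117 to 25729; 1 count in sperm) and Majin, whose protein ties telomeres to the nuclear envelope, at least 26.4-fold (0 counts). Syce2, a central element gene like Syce1, went the other way at -3.71 (edgeR adjusted p = 1.3e-06), with 336 CPM in sperm against 85.2 in round spermatids. The axis gene Hormad2, a relative of Hormad1, was lower too, at -2.09 (0.000552), but on library totals it was at -0.35 (adjusted p = 0.413) and against LFD sperm alone at -0.98 (0.0743).

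Of the recombination genes, 17 of 21 tested were called higher and 2 lower, against the same 52.3% and 25.1%. Of the 4 that passed the filter in sperm, 1 was higher and 2 lower. Top6bl, listed in the table as Gm960, was lower (-1.89, edgeR adjusted p = 0.000238), but not past the threshold on library totals (-0.32, adjusted p = 0.501) or without HFD sperm library 3 (-0.95, 0.0923). For Ankrd31 the direction turned with the scaling. It was at -0.90 (adjusted p = 0.022) with TMM and at 0.86 (0.00564) on library totals, with 102 CPM in round spermatids and 56.9 CPM in sperm, but 104 against 226 in nuclear CPM. Its call was lost without HFD sperm library 2 (-0.37) or LFD sperm library 2 (-0.51) or 3 (-0.71). Iho1, a partner of HORMAD1 in break formation, had a pooled ratio of 407 (73.1 to 16100) with 1 count in sperm.

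All 10 genes of meiotic entry and prophase and 15 of 16 piRNA and germ granule genes were called higher in round spermatids, where 52.3% of all genes tested were. With the filter in sperm passed, these were 4 of 4 and 6 of 6, where 31.9% of such genes were. The remaining piRNA gene, Piwil4, was at -4.48 (edgeR adjusted p = 0.000169) and was not called without HFD sperm library 2 (-2.87, 0.126). Beside the same 52.3%, 10 of 14 spermatogonial, 9 of 10 spermatocyte, 16 of 19 spermatid, 5 of 6 Leydig and 4 of 7 Sertoli markers were higher. Past the filter in sperm these were 0 of 2, 5 of 6, 8 of 11, 0 of 1 and 0 of 2. Lower in round spermatids, as were 25.1% of all genes tested, were 5 of 5 myoid and smooth muscle, 6 of 7 leukocyte and 4 of 6 epididymal markers. Relative to spermatid markers the meiotic genes were far scarcer in sperm, with 0.443 to 0.555 counts per 100 marker counts on HFD and 0.740 to 0.825 on LFD, against 12.2 to 17.1 in round spermatids. Per 100 spermatocyte marker counts they had 2.36 to 2.59, 3.55 to 4.00 and 25.4 to 28.9.

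**Figure D4:**
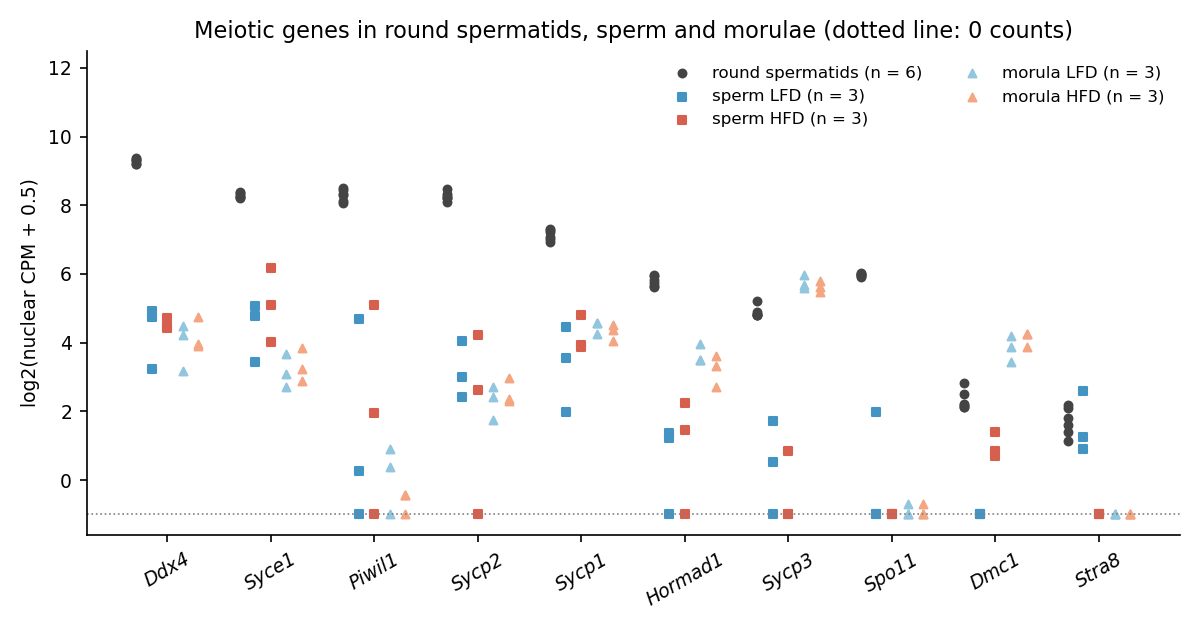
Level of each meiotic gene as log2(nuclear CPM + 0.5) in round spermatids (black circles, n = 6), sperm (squares, n = 3 per diet) and morulae (triangles, n = 3 per diet), the dotted line marking 0 counts. Round spermatids lie above sperm for 9 of the 10 genes, and morulae lie above round spermatids for Sycp3 and Dmc1.

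Diet was compared in sperm, which asks whether the feeding changed what is left of meiotic RNA. Only Sycp1, Syce1 and Ddx4 passed the filter on low counts, and none was called, where edgeR called 0 of 8643 genes (0%; 1124 at an unadjusted p under 0.05), DESeq2 286 and limma-voom 0. The log2 fold change of HFD over LFD was 1.21 ± 0.92 for Sycp1 (SE; edgeR adjusted p = 0.628), 1.38 ± 0.78 for Syce1 (0.491) and 0.75 ± 0.80 for Ddx4 (0.745). On library totals the signs turned, to -0.41, -0.35 and -0.91. With SEs of this size, changes of the order of those seen were not detectable at this depth. On simulated data, edgeR recovered only 9% of genes altered by a log2 change of 2, so larger changes could be missed too.

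Summed over the 10 genes, the level was 20.3 ± 6.44 CPM on HFD and 32.1 ± 12.1 on LFD (SD, n = 3 each), with a difference of -11.8 CPM within the spread (two-sided exact permutation test, p = 0.2, where 0.1 is the smallest p that 3 against 3 allow). In nuclear CPM the order was the reverse, 107 ± 36.8 against 81.7 ± 42.9 (exact permutation p = 0.5). Among the 3 genes that passed the filter, 0 were without overlap between the diets, where 20.4% of the genes tested did not overlap. Dmc1 and Stra8, which did not pass it, had counts in each library of 1 diet and in none of the other, with 1 count per HFD library and 2 to 6 counts per LFD library. Beside these values the share of mtDNA genes differed between the diets, and epididymal markers summed to 1603 to 2629 CPM on HFD and 2483 to 23571 CPM on LFD. Smooth muscle markers reached 534 CPM in HFD library 3 against 0.67 to 87.1 in the other 5. Their part in the sperm values was not tested.

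The lower share of meiotic counts per 100 spermatid marker counts on HFD given above (mean 0.488 ± 0.0591 against 0.774 ± 0.0450, SD, n = 3 each) did not overlap between the diets. This ratio was picked after the values were seen and is given as a description. Of single genes tested, 20.4% did not overlap. With TMM, the 11 spermatid markers tested were all positive on HFD over LFD, at a median log2 fold change of 1.33. The median was 1.21 for the 3 meiotic genes tested and -0.07 over all genes, with none of these markers or genes past the threshold. The ratio alone thus does not give the direction of the meiotic genes.

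Morulae begin from sperm and oocyte, and the oocyte passes through meiosis itself, so these genes were read there too. Sycp3 led, with 375, 474 and 452 counts in HFD libraries 1 to 3 and 430, 422 and 578 in LFD libraries 1 to 3 (mean 38.4 CPM, 39.3% of the sum of the 10). Sycp1 (mean 15.5 CPM), Ddx4 (13.1), Dmc1 (11.7), Hormad1 (7.94), Syce1 (6.99) and Sycp2 (3.75) were present in all 6 libraries. Piwil1 had 24 counts in all, 20 of them in LFD libraries 2 and 3, Spo11 had 2 and Stra8 0. The sum was 97.7 ± 5.67 CPM (SD, n = 6), so the genes that lead in round spermatids, Ddx4, Piwil1, Syce1 and Sycp2, did not lead in the embryo.

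None of the 7 genes with enough counts differed by father's diet in edgeR, which called 0 of 13447 genes (0%; 858 at an unadjusted p under 0.05; DESeq2 called 9, limma-voom 0). The log2 fold changes of HFD over LFD ran from -0.44 ± 0.31 for Hormad1 (SE; edgeR adjusted p = 0.855) to 0.26 ± 0.24 for Dmc1 (0.906). Sycp1 was at -0.18 ± 0.20, Sycp3 at -0.15 ± 0.15, Syce1 at 0.13 ± 0.34, Ddx4 at 0.18 ± 0.33 and Sycp2 at 0.22 ± 0.42. Groups overlapped for each of these genes, where 12.1% of the genes tested did not overlap.

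Against morulae, a comparison added after the data were seen and sharing its round spermatid libraries with the one against sperm, round spermatids were lower for Sycp3 and Dmc1 and higher for the other 8, where 92.7% of 22964 genes were called, 59.1% higher and 33.6% lower. In TMM-scaled CPM no library of round spermatids overlapped with a morula library for any of the 10, while groups did not overlap for 82.9% of all genes tested. In CPM, Sycp3 did overlap, with 26.7 to 35.7 in round spermatids and 32.3 to 47.6 in morulae. Dmc1 had 669 counts over the round spermatid libraries and 829 over the much smaller morula libraries, and its log2 fold change was -1.59 ± 0.15 (SE; edgeR adjusted p = 4.36e-08). The tables were not counted on the same gene models throughout: Dmc1 has 2192 exon bases in the round spermatid table and 2435 in the morula and sperm tables, Ddx4 has 2849 against 3014, and the other 8 genes have the same length in each. The part of the gene model in the values of Dmc1 was not tested. Sycp3 was at -0.65 ± 0.10 (9.93e-06), again with the overlap with Chpt1, which had 3792 counts in morulae against 2731 of Sycp3. Both kept their direction under the alternatives run, from -1.70 to -1.29 for Dmc1 and from -0.71 to -0.35 for Sycp3, while the median over all genes was 1.54 (1.85 with DESeq2 size factors). Higher in round spermatids were Hormad1 by 2.55 ± 0.13, Sycp1 by 2.93 ± 0.09, Syce1 by 5.24 ± 0.15, Ddx4 by 5.33 ± 0.18 and Sycp2 by 6.11 ± 0.13. Piwil1, Spo11 and Stra8 did not pass the filter on low counts in morulae alone. They entered this test through round spermatids and then had to be higher, so their calls are no result about them. Piwil1 had a mean of 309 CPM in round spermatids and 0.334 CPM in morulae. Spo11 had a pooled ratio of 2168 (600 to 17905) and Stra8, with 0 counts in morulae, was at least 64.7-fold higher by CPM, with the floor of 3 counts taken over the group.

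Liver and gastrocnemius held next to nothing of the 10 genes, with 11 and 6 counts over 6 libraries each. In liver these were 5 of Sycp2, 3 of Sycp1, 2 of Sycp3 and 1 of Syce1, and in gastrocnemius 2 of Ddx4, 2 of Sycp2, 1 of Dmc1 and 1 of Stra8. These tissues were sequenced from the 3′ end with another kit, so their levels were not tested against the germ cells. In eWAT the sum was 6.96 to 21.2 CPM, mostly from Sycp3 with 11, 22, 14, 8, 41 and 58 counts in libraries 1 to 6. Chpt1 had 12942 counts in eWAT, and reads of these overlapping genes cannot be told apart.

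Library 4 of eWAT differed from the other 5 for several meiotic genes but not for Sycp3, which was lowest there. It held 8 of the 10 counts of Spo11, 7 of the 11 of Dmc1 and both counts of Ddx4, while Sycp2 had 11 counts there against 13 in library 6 and Syce1 11 against 8. Some lists of the germ line moved with these counts. Spermatid markers summed to 102 CPM in library 4 against 15.5 to 27.5 in the others. Spermatocyte markers summed to 58.9 against 5.59 to 14.9, and synaptonemal complex and cohesin genes to 35.9 against 6.39 to 11.2. Other germ line lists did not stand out. Spermatogonial markers (227 against 149 to 316) and the 10 meiotic genes (13.95 against 6.96 to 21.2) lay within the others. The piRNA and germ granule genes were at 17.4 against 11.2 to 17.2. Markers outside the germ line moved in this library too, with morula markers at 29.6 CPM against 2.42 to 9.17. Sox9, a Sertoli marker made in other tissues as well, had 1130 counts there against 11 to 26 in the others (322 against 6.41 to 12.6 CPM), while the Sertoli genes Amh, Fshr, Rhox5 and Rhox8 were at 0 in every eWAT library. Summed Sertoli markers were at 829 CPM against 244 to 547 and adipocyte markers at 14878 against 17685 to 28927, the lowest of the 6. Epididymal epithelium markers were at 2.56 CPM, within the 0 to 8.22 of the others. Labels do not tie the library to a group, and the part of RNA from other cells in these values was not tested.

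**Figure D5:**
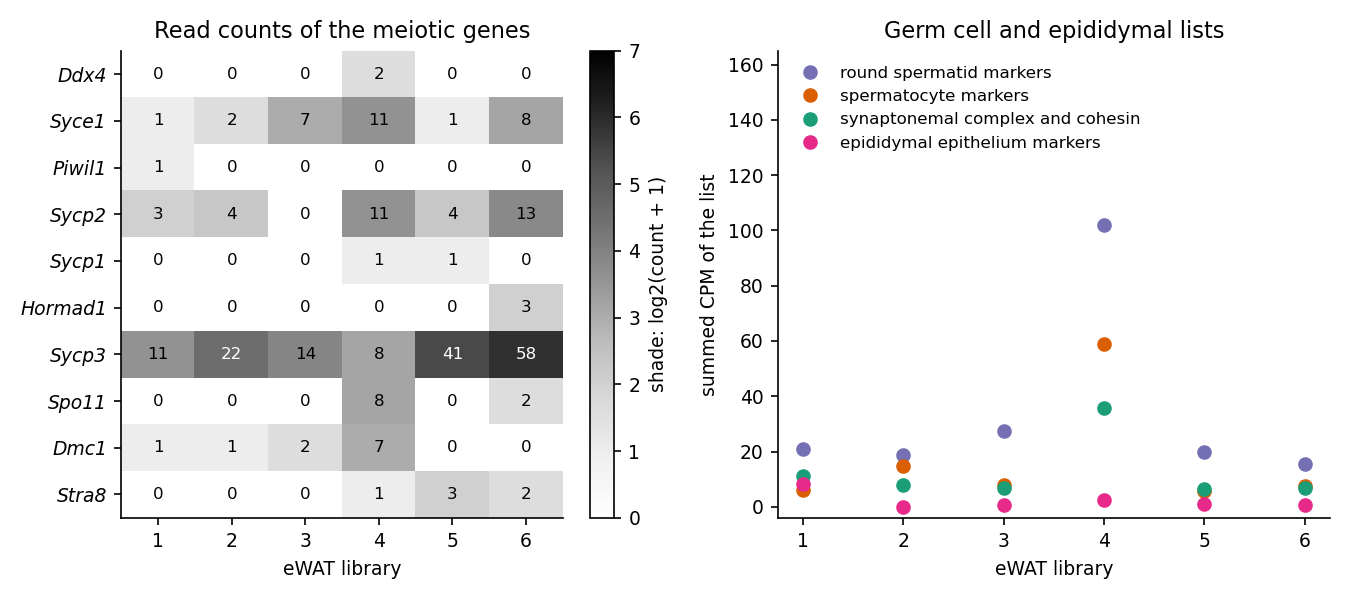
Left, read counts of each meiotic gene in the 6 eWAT libraries, with the shade giving log2(count + 1). Right, summed CPM of 4 marker lists per library, where library 4 reaches 102 CPM of spermatid and 58.9 CPM of spermatocyte markers and the other 5 stay at or below 27.5.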

How the data were processed

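RNA-seq count tables of round spermatids, cauda spermatozoa, morulae, liver, eWAT and gastrocnemius were used, with 6 libraries each. Per the authors' methods, reads were cleaned by BBDuk, aligned by STAR against GRCm38 and assigned to genes by featureCounts. The deposited values are raw counts and were used as they stand. Round spermatid and morula libraries (Nextera) were paired-ended, sperm single-ended, and somatic tissues were QuantSeq 3′ libraries. Neither strand setting nor treatment of multiply mapped reads is given in the sources used here.

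Sperm and morula diets were taken from the column names read with the sample titles. For 3 morula samples a description names the other diet, and title and treatment were followed. Columns of the other 4 tissues name no sample and formed a single group per tissue. Exon lengths in the tables differ between round spermatids and sperm for 5.45% of 51746 shared genes and between round spermatids and morulae for 7.89% of 51413. No 2 libraries of a group differed by sampling noise alone.

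Counts were fitted by edgeR 4.0.16 (R 4.3.3) after filterByExpr (minimum count 10) and TMM scaling, with two-sided quasi-likelihood tests. p-values were adjusted by Benjamini-Hochberg over all genes tested and called at 0.05. Round spermatids were set against the mean of both sperm diets, with genes joined by identifier. DESeq2 1.42.0, limma-voom (limma 3.58.1), DESeq2 size factors, library totals, mtDNA genes left out, no filter, 1 sperm diet alone, a replicate block and each library left out in turn were alternatives, of which the comparison with morulae, the counts over all genes and those for list genes were added after seeing the data. p-values measure the spread between these samples, which labels do not say to be separate animals. Intervals are exact at 95%, for counting error only. The fits were checked beforehand on simulated data with 200 genes altered by a log2 change of 2. Of these, edgeR recovered 72.5% for round spermatids against sperm and 92% against morulae. Between diets it recovered 77% in morulae but only 9% in sperm. Tables were read with data.table (1.17.8), pandas 2.3.3 and SciPy 1.17.1, and figures drawn with Matplotlib 3.10.9 in Python 3.11.15.

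Genes named were the 10 and, in several lists, the 2 with the highest mean CPM in round spermatids. Some of the 2 with the largest change past the threshold were named too, and others where said. Leading genes of the spermatogonial and spermatocyte lists are not named, and of the epididymal list only Cst8 is. The 10 genes and 16 further lists were chosen with earlier results of these data known. Lists for liver, muscle, adipocytes and morula served as tissue checks only, with sums of 2.50 to 4.67, 1.13 to 1.79, 16.9 to 20.5 and 24.7 to 29.4 CPM in round spermatids.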

Additional observations from a re-analysis of the deposited data

Results flagged for a closer look

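Of 40 groups of 6 libraries tested, 7 had a library farther from the rest than Dixon's 95% limit for 6 values (0.625 of the range), where chance gives about 1 in 20. In round spermatids it was Sycp3, at 35.7 CPM in library 3 against 26.7 to 28.8 CPM in the other 5. The other 6 were all library 4 of eWAT. Spo11 was at 2.28 CPM there against 0 to 0.493 in the others, and Dmc1 at 1.99 against 0 to 0.747. The summed level was 35.9 CPM for synaptonemal complex and cohesin genes (6.39 to 11.2 in the others), 57.8 for genes of meiotic entry and prophase (18.1 to 28.1), 58.9 for spermatocyte markers (5.59 to 14.9) and 102 for spermatid markers (15.5 to 27.5). These 6 share 1 library and are not independent, and the part of RNA from other cells in them was not tested. Sox9 was at 322 CPM in the same library against 6.41 to 12.6 in the others. Of the 10 genes, 0 moved without overlap in opposite directions with diet in sperm and in morulae.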

How the results depend on the processing

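The level of the meiotic genes in round spermatids rests on depth that sperm lacks: 3 counts are at most 0.149 CPM in the former and 1.17 CPM in the latter, so genes at 0 in sperm bound a ratio and no more. Cell type cannot be told apart from read layout in the test against sperm, nor from depth or the mtDNA share in the tests against sperm and morulae. Summed over the 10 genes, the round spermatid level of 1821 CPM was 1861 in nuclear CPM, 1820 with TMM, 1792 to 1837 with each library left out, and 898 without Piwil1 and Ddx4. Against sperm, where 77.5% of all genes tested were called, 10 genes were called in the fit reported. Under 20 alternatives 9 to 10 were called, Stra8 being the one lost. Most of the 10 entered this test through round spermatids alone, so the count of calls is no result about them. With 1 round spermatid library left out, the filter kept 15998 to 16051 genes, since the median library is then a sperm library. Against morulae, where 92.7% of all genes tested were called, all 10 stayed called under 18 alternatives. Piwil1, Spo11 and Stra8 entered that test through round spermatids alone, so their calls are no result about them. Of the other meiotic genes named against sperm, Ankrd31 (-0.90) turned to 0.86 with library totals and to 0.19 against LFD sperm alone.

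The HFD minus LFD difference of the summed level in sperm, -11.8 CPM, turned to 24.8 in nuclear CPM and 21.0 with TMM, and was -17.1 to -5.17 with each library left out. Library totals turned Sycp1 to -0.41, Syce1 to -0.35 and Ddx4 to -0.91, the cause not being tested. Over all genes, the count called between sperm diets was 0, but 3357 with library totals, 41 without the filter, 286 with DESeq2 and 2 with the replicate block by the number in the column names, and 0 to 0 with each library left out. Only 2 pairs share a number (correlation of deviations 0.11 and -0.15), so the block is no established pairing. Between morula diets the count was 0, but 63 without the filter, 9 with DESeq2 and 0 to 2 with each library left out (2 without HFD library 2). In morulae leaving out single libraries gave Sycp2 -0.0315 to 0.47, Syce1 -0.17 to 0.44 and Ddx4 -0.19 to 0.46, with reversed values of -0.0315 and -0.0313 for Sycp2, -0.17 and -0.07 for Syce1 and -0.19 and -0.13 for Ddx4. No other call of the 10 genes changed under the alternatives run.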

Other observations

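Genes whose pattern over the 18 libraries of round spermatids, sperm and morulae was most like the median of the 10 were sought among 18156 genes with a mean of at least 1 CPM in round spermatids, as the distance between log2(CPM + 0.5) values. The median profile had 91.7 CPM in round spermatids, 1.02 in sperm and 7.03 in morulae. The nearest were Haus1 (distance 2.18; 92.4, 1.19 and 10.8 CPM), Dynlt1f (2.29; 81.0, 0.763 and 7.46 CPM), Fam228b (2.50; 56.6, 0.983 and 6.11 CPM), Rbmxl2 (2.51; 81.2, 0.541 and 7.07 CPM) and Naif1 (2.53; 85.9, 2.34 and 8.05 CPM). Among the 10 the nearest to their own median was Hormad1, at rank 81. These values describe 18 libraries that share 3 sources, and depth and mtDNA share differ between those sources.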
